A study of Mus musculus with 9 samples.

Results

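The chemokine receptors Ccr1, Ccr2, Ccr7, Ccr9, Cxcr3, Cxcr4 and Cx3cr1 were followed in mouse bone marrow progenitors cultured on stromal feeder layers with or without a Notch ligand. These 7 genes, of 18193 measured, were chosen by name, together with every probe set whose platform annotation gives only that symbol. That rule found 16 of the 45101 probe sets on the array, namely 5 for Ccr9, 4 for Ccr2, 2 each for Ccr1 and Cx3cr1, and 1 each for Ccr7, Cxcr3 and Cxcr4. The starting cells were LSK cells (Lineage-, Sca-1+, c-Kit+), the bone marrow fraction that holds the hematopoietic stem cells, taken from wild-type C57/Bl6 mice. There were 3 groups of 3 arrays, all read after 3 days of culture. The OP9-DL1+CompoundE group was grown on OP9 stromal cells carrying the Notch ligand Delta-like 1, with 1 µM Compound E, an inhibitor of the γ-secretase that releases the active part of the Notch receptor. The OP9-DL1 group was grown on the same feeder without the inhibitor, and the OP9-GFP group on OP9 stromal cells without the ligand. The non-adherent cells were harvested, so that a sample could hold several blood cell types and some feeder cells. Whether the 3 replicates of a group stem from different mice or different dishes is not given, and p-values therefore rest on array-to-array spread that may be technical. The labels name no vehicle control for Compound E.

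Chemokine receptors cross the membrane in 7 helices and signal mainly through inhibitory G proteins, which steer a cell along a gradient of its chemokine. Arrestins, receptor kinases and RGS proteins end the signal, and atypical receptors bind chemokines without that G protein signal. In blood cells each receptor is tied to a way of travelling. Ccr7 takes mature dendritic cells and naive T cells to lymph nodes, Ccr9 takes T cell progenitors to the thymus and T cells to the gut, Ccr2 releases monocytes from the marrow, and Cxcr4 keeps progenitors in it. Ccr1 and Cx3cr1 are known from monocytes and macrophages, and Cxcr3 from activated T cells, natural killer cells and plasmacytoid dendritic cells.

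Levels are the deposited log2 values, on which 1 unit is a 2-fold difference. A value at or below 3.64, the highest among 27 bacterial control probe sets over the 9 arrays, was taken as background, and array medians lay between 4.78 and 4.94. A gene was called when its adjusted p in limma, over all genes tested, was below 0.05. The 3 comparisons share arrays, so their values stand side by side and are not independent of one another. Some values were exactly equal on arrays of 1 group. Among the brightest probe sets this was so for Ccr1, Ccr2, Cxcr3 and Cxcr4 among OP9-GFP arrays and for Ccr9 among OP9-DL1 arrays, and for these the spread between arrays may be understated. Among the dimmer probe sets it was so for 1419610_at of Ccr1 and for 1436065_at and 1427419_x_at of Ccr9. Some ligands named below read the same to 2 decimals on all 3 arrays of a group. Ccl6 (10.39) and Pf4 (11.46) did so in OP9-GFP cultures, and Cxcl1 (6.49) in OP9-DL1+CompoundE cultures. Their spread may be understated too. Of 13 Notch target genes, 8 were higher and 1 lower in OP9-DL1 than in OP9-GFP cultures, where 32.6% of all genes were called. In OP9-DL1+CompoundE against OP9-DL1 cultures 1 was higher and 9 lower, where 46.7% of all genes were called. Hey2, among these lower ones, was at background on all 9 arrays. For the same list 0 were higher and 2 lower in OP9-DL1+CompoundE than in OP9-GFP cultures, where 22.7% of all genes were called. The summed linear signal of the list was 1116 to 1199 in OP9-DL1+CompoundE, 2675 to 2718 in OP9-DL1 and 1277 to 1359 in OP9-GFP arrays. Of the genes tied to the starting cells, Kit averaged 8.14 in OP9-DL1+CompoundE, 10.22 in OP9-DL1 and 8.94 in OP9-GFP cultures. Kit is also on the list of mast cell and basophil markers used below. Ptprc, the pan-leukocyte marker CD45, lay between 11.24 and 11.71 on all 9 arrays. Dll1 lay between 3.08 and 3.47, at background on all 9 arrays.

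Promoter windows from RefSeq, on GRCm38.p6, are shown for the receptors that were lower in OP9-DL1 cultures and so moved together. Each runs from 250 bases before to 50 bases after the gene's start, on the gene's strand. RefSeq windows were matched for 6 of the 7 receptors, and Ccr7 was not among them. Capitals mark TGGGAA, the core of the site of RBPJ, the DNA-binding partner of Notch, and GAGGAA, the core of the site of PU.1, a myeloid transcription factor, on either strand (TTCCCA and TTCCTC on the opposite one). The Ccr1 window lies at chr9:123968643-123968942 on the minus strand, the Ccr2 window at chr9:124101933-124102232 on the plus strand, the Cxcr3 window at chrX:101734098-101734397 on the minus strand and the Cx3cr1 window at chr9:120068247-120068546 on the minus strand.
Ccr1: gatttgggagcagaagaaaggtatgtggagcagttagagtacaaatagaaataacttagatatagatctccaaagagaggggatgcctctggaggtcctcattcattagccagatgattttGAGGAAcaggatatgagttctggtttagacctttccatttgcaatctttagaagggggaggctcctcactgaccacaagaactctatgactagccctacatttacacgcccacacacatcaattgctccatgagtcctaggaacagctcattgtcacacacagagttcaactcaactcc
Ccr2: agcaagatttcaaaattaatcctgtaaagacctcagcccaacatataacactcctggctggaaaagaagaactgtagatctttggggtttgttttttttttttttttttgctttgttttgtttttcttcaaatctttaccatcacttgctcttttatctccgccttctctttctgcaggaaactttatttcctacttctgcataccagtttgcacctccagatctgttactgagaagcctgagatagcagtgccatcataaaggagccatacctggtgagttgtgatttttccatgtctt
Cxcr3: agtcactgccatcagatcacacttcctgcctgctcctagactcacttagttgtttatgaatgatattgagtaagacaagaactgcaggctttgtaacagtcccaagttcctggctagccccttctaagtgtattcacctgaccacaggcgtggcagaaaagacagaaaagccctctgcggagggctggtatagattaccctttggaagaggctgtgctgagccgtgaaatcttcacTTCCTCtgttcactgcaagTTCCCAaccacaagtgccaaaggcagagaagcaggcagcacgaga
Cx3cr1: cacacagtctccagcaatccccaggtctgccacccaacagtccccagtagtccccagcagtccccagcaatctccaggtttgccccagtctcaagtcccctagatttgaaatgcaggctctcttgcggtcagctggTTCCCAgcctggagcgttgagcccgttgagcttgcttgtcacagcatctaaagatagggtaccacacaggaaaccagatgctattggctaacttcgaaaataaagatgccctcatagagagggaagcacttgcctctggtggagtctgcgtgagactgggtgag
Among these letters, GAGGAA stands 129 bases before the start of Ccr1, and the Ccr2 window holds neither motif. In the Cxcr3 window, TTCCTC stands 14 bases before the start and TTCCCA 6 bases after it. In the Cx3cr1 window, TTCCCA stands 114 bases before the start. TGGGAA was found on either strand in 2 of the 6 windows, against 25.6% of all 32851 windows in the same set, and GAGGAA in 2 of the 6, against 28.3%. No matches overlapped, and the windows of Ccr9 and Cxcr4 held neither motif.

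On the Delta-like 1 feeder Ccr7 rose while Ccr1, Ccr2, Cx3cr1 and Cxcr3 fell, which is the question of the comparison between ligand-bearing and control stroma. Of the 7 receptors, 1 was higher and 4 were lower in OP9-DL1 than in OP9-GFP cultures, and Cxcr4 and Ccr9 did not pass the test. Over all genes tested, 32.6% were called, 15.9% higher and 16.7% lower. The median log2 difference was -0.77 over the receptors and -0.02 over all genes. The groups did not overlap for 5 of the 7 receptors, as for 43.8% of all genes.

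Ccr7, the lymph node homing receptor, was measured at 7.53, 7.53 and 7.50 in OP9-DL1 cultures, against 3.26, 3.26 and 2.84 in OP9-GFP cultures. All 3 OP9-GFP arrays were at background and all 3 OP9-DL1 arrays were far above it. The fitted log2 difference was 4.40 ± 0.14 (SE), with an adjusted p of 7.36e-13 in limma, and set against the background limit Ccr7 was at least 14.7-fold higher in OP9-DL1 cultures. With 32 added to the linear values before the log, which compresses dim genes, the difference was 2.4. Ccr9, the thymus and gut homing receptor, showed no such signal. Its brightest probe set gave 3.58, 3.58 and 3.48 in OP9-DL1 cultures, against 4.12, 3.58 and 3.32 in OP9-GFP cultures. The groups overlapped, and the log2 difference of -0.13 had a 95% interval from -0.60 to 0.35 and an adjusted p of 0.748 in limma.

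Ccr1, a receptor of Ccl3 and Ccl5, was measured at 6.42, 6.39 and 6.62 in OP9-DL1 cultures, against 8.69, 8.69 and 8.72 in OP9-GFP cultures. It was well above background on all 6 arrays, and the groups lay far apart. The log2 difference was -2.23 ± 0.08 (SE), a level 4.69-fold lower in OP9-DL1 cultures, with an adjusted p of 3.23e-12 in limma. Ccr2, the receptor of Ccl2, was measured at 11.32, 11.16 and 11.20 in OP9-DL1 cultures, against 11.93, 11.93 and 12.13 in OP9-GFP cultures. The groups did not overlap, although the shift was small at this bright probe set. Its log2 difference was -0.77 ± 0.07 (SE), 1.71-fold lower in OP9-DL1 cultures, with an adjusted p of 1.65e-07 in limma. The other 3 probe sets of Ccr2 gave -1.92 to -2.38, and the mean of all 4 gave -1.86. Cx3cr1, the fractalkine receptor, was measured at 7.39, 7.21 and 7.09 in OP9-DL1 cultures, against 8.47, 8.47 and 8.48 in OP9-GFP cultures. Every OP9-DL1 array was below every OP9-GFP array. Cx3cr1 thus differed by -1.24 ± 0.09 (SE) on the log2 scale, 2.37-fold lower in OP9-DL1 cultures, with an adjusted p of 7.38e-09 in limma.

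Cxcr3, the receptor of Cxcl9, Cxcl10 and Cxcl11, was measured at 4.81, 4.86 and 5.22 in OP9-DL1 cultures, against 6.46, 6.66 and 6.46 in OP9-GFP cultures. All arrays of both groups were above background, and the OP9-DL1 arrays were the low ones. Cxcr3 differed by -1.56 ± 0.13 (SE) on the log2 scale, with an adjusted p of 4.69e-08 in limma. With 32 added before the log it was -0.97. Cxcr4, the marrow retention receptor, was measured at 11.79, 11.88 and 11.80 in OP9-DL1 cultures, against 11.84, 11.84 and 12.10 in OP9-GFP cultures. The groups overlapped, and the log2 difference of -0.10 had a 95% interval from -0.25 to 0.05 and an adjusted p of 0.313 in limma.

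**Figure D1:**
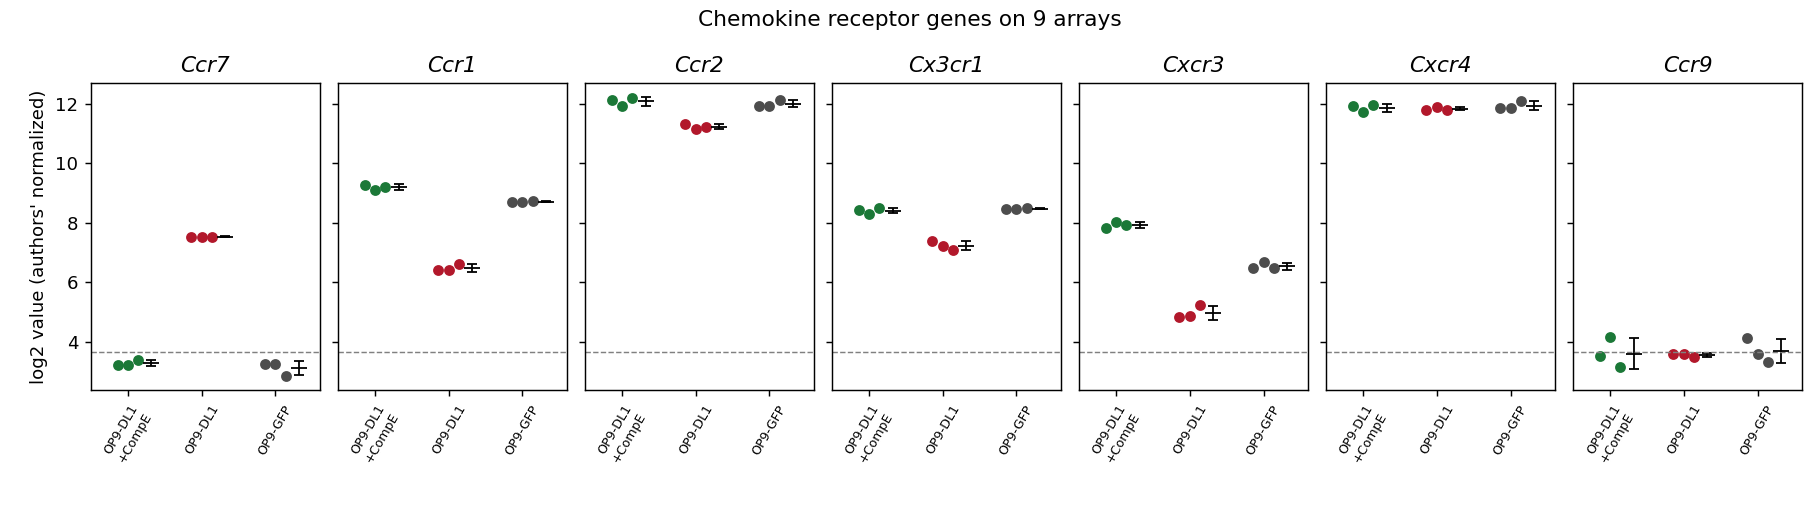
Deposited log2 value (vertical axis) of the 7 chemokine receptors on each of the 9 arrays, each gene by its brightest probe set; points are arrays, the marks beside them are group means with SD bars, CompE stands for Compound E, and the dashed line is the background limit of 3.64. Ccr7 is near 7.5 on OP9-DL1 arrays and at background on all others, Ccr1 and Cxcr3 are lowest on OP9-DL1 arrays, and Cxcr4 is near 11.9 in all 3 groups.

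Markers of several cell types moved between OP9-DL1 and OP9-GFP cultures, where 32.6% of all genes were called, 15.9% higher and 16.7% lower. In a bulk sample, fewer cells of a type and less RNA per cell cannot be told apart. Of 13 monocyte and macrophage markers, 0 were higher and 11 lower in OP9-DL1 than in OP9-GFP cultures, beside the lower Ccr1, Ccr2 and Cx3cr1. Their summed linear signal was 30710 to 31342 in OP9-DL1+CompoundE, 12352 to 12879 in OP9-DL1 and 26883 to 27831 in OP9-GFP arrays, and 0 of them were at background on all 9 arrays. Beside the higher Ccr7, 5 of 16 dendritic cell markers were higher and 7 lower in OP9-DL1 than in OP9-GFP cultures. Itgax, which encodes CD11c, averaged 8.86 in OP9-DL1 and 4.82 in OP9-GFP cultures, and Zbtb46, a transcription factor of classical dendritic cells, averaged 5.80 in OP9-DL1 and 4.16 in OP9-GFP cultures. The largest falls of the list were those of Irf4, a transcription factor of dendritic cells and lymphocytes, which averaged 6.84 in OP9-DL1 and 10.37 in OP9-GFP cultures, and of Clec10a, a lectin of macrophages and dendritic cells, which averaged 7.23 in OP9-DL1 and 10.55 in OP9-GFP cultures. The summed signal of the dendritic list was 8429 to 8880 in OP9-DL1+CompoundE, 7665 to 7998 in OP9-DL1 and 10138 to 10343 in OP9-GFP arrays. Xcr1 and Cd209a were at background on all 9 arrays, although Cd209a is among the 7 called lower.

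Of 14 early T cell markers, 8 were higher and 2 lower in OP9-DL1 than in OP9-GFP cultures, where 32.6% of all genes were called. Their summed signal was 467 to 531 in OP9-DL1+CompoundE, 572 to 611 in OP9-DL1 and 660 to 710 in OP9-GFP arrays. The 2 lower ones were Cd28, which averaged 6.63 in OP9-DL1 and 8.74 in OP9-GFP cultures, and Il7r, which averaged 5.51 and 6.65. Cd3e, Ptcra, Rag1 and Rag2 were at background on all 9 arrays, although Cd3e is among the 8 called higher. Of these 8, Il2ra and Gata3 are also on the list of Notch target genes, and Thy1 on that of stromal feeder markers. Of 9 natural killer cell markers, 2 were higher and 2 lower, with a summed signal of 387 to 440 in OP9-DL1+CompoundE, 2932 to 3145 in OP9-DL1 and 657 to 683 in OP9-GFP arrays. The 2 higher ones were the granule proteases Gzma and Gzmb, while Ncr1, Eomes, Tbx21 and Il2rb of that list were at background on all 9 arrays. Gzmb averaged 11.26 in OP9-DL1 and 5.86 in OP9-GFP cultures, and made up most of the sum in OP9-DL1 arrays. The 2 lower ones were Klrk1, which averaged 4.54 in OP9-DL1 and 5.41 in OP9-GFP cultures, and Klrd1, which averaged 7.28 and 7.87. Of 9 B cell markers, 1 was higher and 2 lower, near the share of all genes. Their summed signal was 740 to 831 in OP9-DL1+CompoundE, 997 to 1104 in OP9-DL1 and 924 to 934 in OP9-GFP arrays. Stromal feeder markers were higher in OP9-DL1 than in OP9-GFP cultures for 14 of 18 and lower for 0, with 17005 to 17679 in OP9-DL1+CompoundE, 28285 to 28397 in OP9-DL1 and 17505 to 17786 in OP9-GFP arrays. Among other myeloid lists, 11 of 11 megakaryocyte markers were higher in OP9-DL1 than in OP9-GFP cultures. Of 11 mast cell and basophil markers 8 were higher and 1 lower there, of 14 neutrophil markers 7 were higher and 6 lower, and of 6 eosinophil markers 1 was higher and 3 lower. The part of these shifts in the receptor results was not tested.

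With γ-secretase inhibited on the same feeder, Ccr1, Ccr2, Cx3cr1 and Cxcr3 rose and Ccr7 fell. Of the 7 receptors, 4 were higher and 1 was lower in OP9-DL1+CompoundE than in OP9-DL1 cultures, where 46.7% of all genes were called, 25.1% higher and 21.6% lower. The median log2 difference was 0.85 over the receptors and 0.08 over all genes. The groups did not overlap for 5 of the 7 receptors, as for 52.6% of all genes. With each array centred on its median, the median of all genes was 0.21, and 8040 genes were higher and 2876 lower, against 4574 higher and 3926 lower as deposited.

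Cxcr3 was measured at 7.81, 8.02 and 7.92 in OP9-DL1+CompoundE cultures, and OP9-DL1 arrays lay about 3 units below. The log2 difference was 2.95 ± 0.13 (SE), 7.73-fold higher with the inhibitor, with an adjusted p of 1.12e-11 in limma. Ccr1 was measured at 9.28, 9.10 and 9.21 in OP9-DL1+CompoundE cultures, again apart from every OP9-DL1 array. Its log2 difference was 2.72 ± 0.08 (SE), 6.58-fold higher, with an adjusted p of 1.61e-13 in limma. Ccr2 was measured at 12.12, 11.91 and 12.19 and Cx3cr1 at 8.43, 8.30 and 8.48 in OP9-DL1+CompoundE cultures. Both receptors were higher than on any OP9-DL1 array. The log2 difference was 0.85 ± 0.07 (SE) for Ccr2, with an adjusted p of 3.6e-08 in limma, and 1.17 ± 0.09 (SE) for Cx3cr1, with 1.02e-08.

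Ccr7 was at background on all 3 OP9-DL1+CompoundE arrays, at 3.20, 3.22 and 3.38, at least 14.7-fold lower than in OP9-DL1 cultures. The fitted log2 difference was -4.25 ± 0.14 (SE), with an adjusted p of 4.16e-13 in limma, and -2.37 with 32 added before the log. Cxcr4 was measured at 11.93, 11.71 and 11.94 in OP9-DL1+CompoundE cultures, overlapping the OP9-DL1 arrays. Its log2 difference of 0.04 had a 95% interval from -0.11 to 0.19 and an adjusted p of 0.697 in limma. With arrays centred on their medians it was called, at 0.17 with an adjusted p of 0.0481, but the median of all genes was then 0.21. Relative to the median of all genes, Cxcr4 was at -0.04 both as deposited and with arrays centred. Over all alternatives the adjusted p of Cxcr4 ranged from 0.0481 to 0.991. Ccr9 was measured at 3.50, 4.15 and 3.13 in OP9-DL1+CompoundE cultures, with 1 of 3 arrays above background. Its log2 difference of 0.05 had a 95% interval from -0.43 to 0.52. In this comparison 46.7% of all genes were called, 25.1% higher and 21.6% lower. Of 13 monocyte and macrophage markers 11 were higher and 1 lower, and of 16 dendritic cell markers 6 were higher and 6 lower. Of 14 early T cell markers 1 was higher and 8 lower, with Cd3e, at background on all 9 arrays, among the lower ones. Of the other lists, 0 of 11 megakaryocyte markers were higher and 11 lower, 0 of 11 mast cell and basophil markers were higher and 9 lower, and 1 of 18 stromal feeder markers was higher and 14 lower. Their part in the receptor results was not tested.

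Set against the feeder without ligand, the inhibited cultures differed in Cxcr3 and Ccr1. Of the 7 receptors, 2 were higher and 0 lower in OP9-DL1+CompoundE than in OP9-GFP cultures, where 22.7% of all genes were called, 12.1% higher and 10.6% lower. Cxcr3 averaged 7.92 ± 0.106 in OP9-DL1+CompoundE and 6.52 ± 0.118 in OP9-GFP cultures (SD, n = 3 each). Its log2 difference was 1.39 ± 0.13 (SE), 2.62-fold, with a 95% interval from 1.12 to 1.66 and an adjusted p of 1.18e-06 in limma. Ccr1 averaged 9.19 ± 0.089 in OP9-DL1+CompoundE and 8.70 ± 0.017 in OP9-GFP cultures (SD, n = 3 each), where a pair of the arrays held equal values. Its log2 difference was 0.49 ± 0.08 (SE), 1.40-fold, with an adjusted p of 0.00041 in limma.

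The groups did not overlap for these 2 receptors of the 7, as for 34.8% of all genes. The other receptors did not pass the test. The log2 difference was 0.08 for Ccr2, with a 95% interval from -0.07 to 0.22, and -0.07 for Cx3cr1, from -0.25 to 0.12. It was -0.07 for Cxcr4, from -0.22 to 0.08. Ccr7 was at background in both groups. Beside the higher Cxcr3 and Ccr1, 8 of 13 monocyte and macrophage markers were higher and 3 lower, where 22.7% of all genes were called. There 1 of 16 dendritic cell markers was higher and 5 lower, and 0 of 9 natural killer cell markers were higher and 3 lower. Of 11 megakaryocyte markers 1 was higher and 8 lower, and of 11 mast cell and basophil markers 0 were higher and 7 lower. Of 14 neutrophil markers 8 were higher and 4 lower, and of 18 stromal feeder markers 3 were higher and 6 lower. Of 14 early T cell markers 0 were higher and 3 lower. B cell markers gave 3 higher and 2 lower of 9, and eosinophil markers 0 and 2 of 6. The part of these markers was not tested. With arrays centred, 4466 genes were higher and 1242 lower, against 2208 higher and 1927 lower as deposited, and the median over all genes was 0.14 instead of 0.05.

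The direction of the called receptors was the same at every probe set that measured them, but the size was not. A fit over all 45101 probe sets called 1 of the 16 higher and 9 lower in OP9-DL1 than in OP9-GFP cultures, where 24.8% of all probe sets were called, 12.1% higher and 12.7% lower. The groups did not overlap for 11 of the 16, as for 37.2% of all probe sets. Ccr2 was the receptor whose probe sets differed most. Its brightest, 1421186_at, gave a log2 difference of -0.77, and the others gave -1.92 (1421187_at), -2.37 (1421188_at) and -2.38 (1460067_at). At 1421188_at the values were 7.70, 8.02 and 7.54 in OP9-DL1 cultures, against 10.09, 10.08 and 10.20 in OP9-GFP cultures. The arrays of each group lay close together, and the gap was over 2 units. With its probe sets averaged, the Ccr2 log2 difference was 2.09 in OP9-DL1+CompoundE against OP9-DL1 cultures.

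In OP9-DL1+CompoundE against OP9-DL1 cultures, 9 of the 16 probe sets were higher and 1 lower, where 39.1% of all probe sets were called, 19.1% higher and 20% lower, and the groups did not overlap for 10 of the 16, as for 47% of all. The Ccr2 differences were 0.85, 2.08, 2.62 and 2.80 in the same order of probe sets. Against OP9-GFP cultures, 4 of the 16 were higher and 0 lower, where 19% of all were called, 8.23% higher and 10.7% lower, and the groups did not overlap for 6 of the 16, as for 31.7% of all. These 4 were both probe sets of Ccr1, the Cxcr3 probe set and 1460067_at of Ccr2, at a log2 difference of 0.42 with an adjusted p of 0.000204 in limma. The other 3 probe sets of Ccr2 did not pass, and with the probe sets averaged Ccr2 was called in this comparison, at 0.23 with an adjusted p of 0.0157. Over all alternatives that p ranged from 0.0157 to 0.889.

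The remaining probe sets were dimmer. The dimmer Ccr1 probe set, 1419610_at, gave 8.48, 8.01 and 8.26 in OP9-DL1+CompoundE, 5.62, 5.43 and 5.87 in OP9-DL1, and 7.75, 7.75 and 7.84 in OP9-GFP cultures. OP9-DL1 arrays were the low ones, as at the brighter probe set, and the log2 difference between OP9-DL1 and OP9-GFP cultures was -2.14. The dimmer Cx3cr1 probe set, 1450019_at, was at background on all OP9-DL1 arrays, at 3.56, 3.41 and 3.63, against 4.20, 3.96 and 4.14 in OP9-GFP cultures. Set against the background limit it was lower in OP9-DL1 cultures by at least 1.37-fold, with an adjusted p of 0.00418 in limma. None of the 5 Ccr9 probe sets was called in any of the 3 comparisons, and the 4 beside the brightest lay between 2.46 and 3.83 on all 9 arrays.

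**Figure D2:**
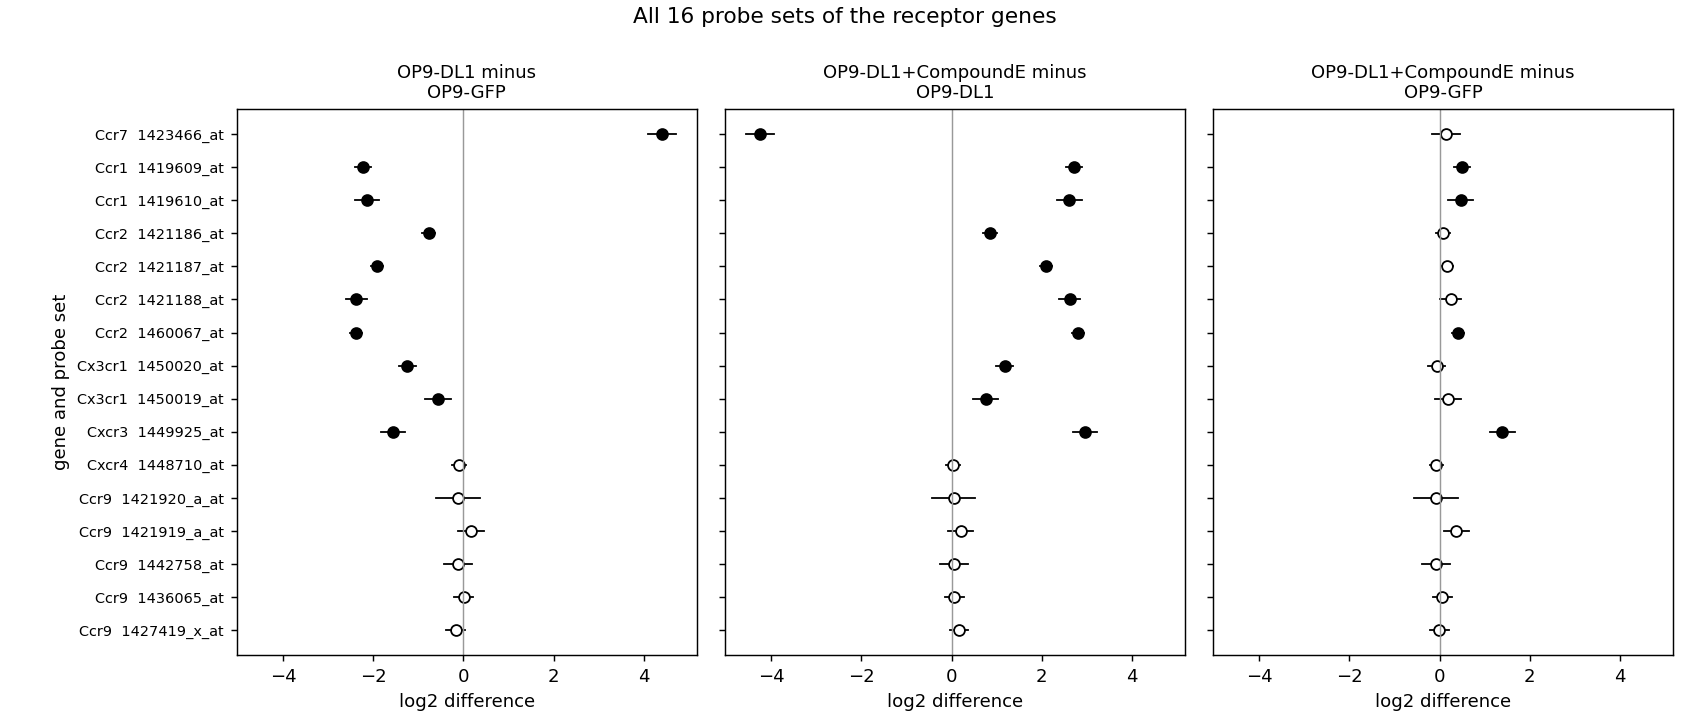
Log2 difference with its 95% interval (horizontal axis) of each of the 16 probe sets of the 7 receptors, in each of the 3 comparisons; filled points have an adjusted p below 0.05. The 4 Ccr2 probe sets run from -0.77 to -2.38 in OP9-DL1 against OP9-GFP cultures, and the 5 Ccr9 probe sets lie near 0.

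Among 15 other chemokine receptors measured, 3 were higher and 0 lower in OP9-DL1 than in OP9-GFP cultures, and 9 were at background on all 9 arrays. Over all genes 32.6% were called in that comparison. Among genes above background in at least 1 group, 3 of 6 of these receptors and 6128 of 13449 genes were called. Ackr1, the atypical Duffy receptor, was measured at 5.62 to 6.03 in OP9-DL1+CompoundE, 7.93 to 8.10 in OP9-DL1 and 6.56 to 6.62 in OP9-GFP cultures. No groups overlapped. The log2 difference was 1.46 for OP9-DL1 against OP9-GFP cultures, with an adjusted p of 3.38e-08 in limma, and -2.18 for OP9-DL1+CompoundE against OP9-DL1 cultures, with 1.52e-10. Cxcr2, the neutrophil receptor of the ELR chemokines, was measured at 3.96 to 4.15 in OP9-DL1+CompoundE, 4.83 to 5.30 in OP9-DL1 and 3.65 to 3.81 in OP9-GFP cultures. OP9-DL1 arrays were again the high ones, with log2 differences of 1.33 against OP9-GFP and, for the inhibitor, -1.04. Beside it, the neutrophil list, which holds Cxcr2, summed to 45487 to 45978 in OP9-DL1+CompoundE, 49525 to 50864 in OP9-DL1 and 42176 to 42624 in OP9-GFP arrays, and its part was not tested.

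Ackr3, which scavenges Cxcl12, averaged 7.30 in OP9-DL1+CompoundE, 7.89 in OP9-DL1 and 7.28 in OP9-GFP cultures. It was higher in OP9-DL1 than in OP9-GFP cultures by 0.61, with an adjusted p of 0.00216 in limma. Ackr4, which scavenges Ccl19, Ccl21 and Ccl25, averaged 11.02 in OP9-DL1+CompoundE, 10.63 in OP9-DL1 and 10.70 in OP9-GFP cultures. It differed where the inhibitor was present, by 0.39 against OP9-DL1 cultures with an adjusted p of 9.16e-05. These Ackr4 values are those of its brightest probe set. In the fit over all probe sets, another bright one gave 0.38 there, with an adjusted p of 4.86e-05 in limma. The remaining Ackr4 probe set was dim, at 3.86 or less on every array, and did not pass in any of the 3 comparisons. In OP9-DL1+CompoundE against OP9-DL1 cultures, 1 of the 15 was higher and 3 lower as deposited, where 46.7% of all genes were called. With arrays centred, 6 were higher and 3 lower, beside 8040 higher and 2876 lower of all 18193 genes. Against OP9-GFP cultures, 1 was higher and 1 lower as deposited, where 22.7% of all genes were called. Ackr2, which scavenges inflammatory chemokines, and Ccrl2 did not pass the test in any of the 3 comparisons, with log2 differences of -0.25 and 0.25 for OP9-DL1 against OP9-GFP cultures. Ccr1l1, Ccr3, Ccr4, Ccr6, Ccr8, Ccr10, Cxcr5, Cxcr6 and Xcr1 were at background on every array.

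Chemokines moved in both directions. Of 34 ligands measured of 36 listed, 11 were higher and 6 lower in OP9-DL1 than in OP9-GFP cultures, 7 were higher and 10 lower in OP9-DL1+CompoundE than in OP9-DL1 cultures, and 8 were higher and 4 lower in OP9-DL1+CompoundE than in OP9-GFP cultures. Over all genes tested 32.6%, 46.7% and 22.7% were called in these comparisons. With arrays centred, 13 ligands were higher and 8 lower in OP9-DL1+CompoundE than in OP9-DL1 cultures, beside 8040 higher and 2876 lower of all 18193 genes. Among the ligands of Ccr1, Ccl6 averaged 10.76 in OP9-DL1+CompoundE, 8.71 in OP9-DL1 and 10.39 in OP9-GFP cultures, and Ccl9 averaged 12.65 in OP9-DL1+CompoundE, 11.46 in OP9-DL1 and 12.63 in OP9-GFP cultures. Both were lowest in OP9-DL1 cultures, as their receptor was. The log2 difference between OP9-DL1 and OP9-GFP cultures was -1.68 for Ccl6, with an adjusted p of 1.14e-10 in limma, and -1.17 for Ccl9, with 2.23e-11. Ccl3, another ligand of Ccr1, fell by 0.25 in OP9-DL1 relative to OP9-GFP cultures, with an adjusted p of 0.00318. Ccl5 was higher there by 0.70, with an adjusted p of 0.00434 in limma, but near background. It averaged 4.28 in OP9-DL1 and 3.58 in OP9-GFP cultures, with 1 of 3 OP9-GFP arrays above the limit. Ccl7, which binds Ccr1 and Ccr2, was higher there by 1.58, with an adjusted p of 1.71e-08. Ligands of 1 receptor thus lay on both sides.

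Ccl2, the main ligand of Ccr2, averaged 8.50 in OP9-DL1+CompoundE, 8.70 in OP9-DL1 and 8.10 in OP9-GFP cultures. It was higher in OP9-DL1 than in OP9-GFP cultures by 0.60, opposite to Ccr2, with an adjusted p of 7.66e-06 in limma. Cxcl10, a ligand of Cxcr3, averaged 6.86 in OP9-DL1+CompoundE, 5.61 in OP9-DL1 and 6.89 in OP9-GFP cultures. It was lowest where Cxcr3 was lowest, with a log2 difference of -1.27 for OP9-DL1 against OP9-GFP cultures and an adjusted p of 8.4e-07 in limma. Cxcl9 and Cxcl11, the other Cxcr3 ligands, and Ccl12, a mouse ligand of Ccr2, were at background. Cxcl12, the Cxcr4 ligand made by stroma, averaged 12.08 in OP9-DL1+CompoundE, 12.56 in OP9-DL1 and 12.21 in OP9-GFP cultures. It was higher by 0.35 in OP9-DL1 than in OP9-GFP cultures, with an adjusted p of 1.19e-05, beside the stromal feeder markers of which it is 1, and their part was not tested.

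Ccl25, the Ccr9 ligand, averaged 7.49 in OP9-DL1+CompoundE, 6.99 in OP9-DL1 and 7.19 in OP9-GFP cultures, and was higher by 0.50 with the inhibitor, with an adjusted p of 0.000234 in limma. Cx3cl1, the Cx3cr1 ligand, averaged 4.61 in OP9-DL1+CompoundE, 5.02 in OP9-DL1 and 5.05 in OP9-GFP cultures, and was lower by 0.41 in OP9-DL1+CompoundE than in OP9-DL1 cultures, with an adjusted p of 0.044. Ligands of Ccr7 were not analysed here. The ligands with the smallest p included several of the ELR group, which attract neutrophils through Cxcr2. Cxcl1 averaged 6.49 in OP9-DL1+CompoundE, 8.51 in OP9-DL1 and 6.08 in OP9-GFP cultures, and Cxcl5 averaged 7.79 in OP9-DL1+CompoundE, 9.25 in OP9-DL1 and 6.61 in OP9-GFP cultures. Both were highest in OP9-DL1 cultures, with log2 differences of 2.44 and 2.65 against OP9-GFP cultures. Cxcl3, of the same group, averaged 4.31 in OP9-DL1+CompoundE, 6.96 in OP9-DL1 and 5.54 in OP9-GFP cultures. Cxcl2, also of that group, went the other way, with 5.32 in OP9-DL1 and 5.77 in OP9-GFP cultures and an adjusted p of 0.0301. Pf4, a platelet chemokine and a megakaryocyte marker, was lower by 1.68 on the log2 scale in OP9-DL1+CompoundE than in OP9-DL1 cultures, beside 11 of 11 megakaryocyte markers lower there.

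**Figure D3:**
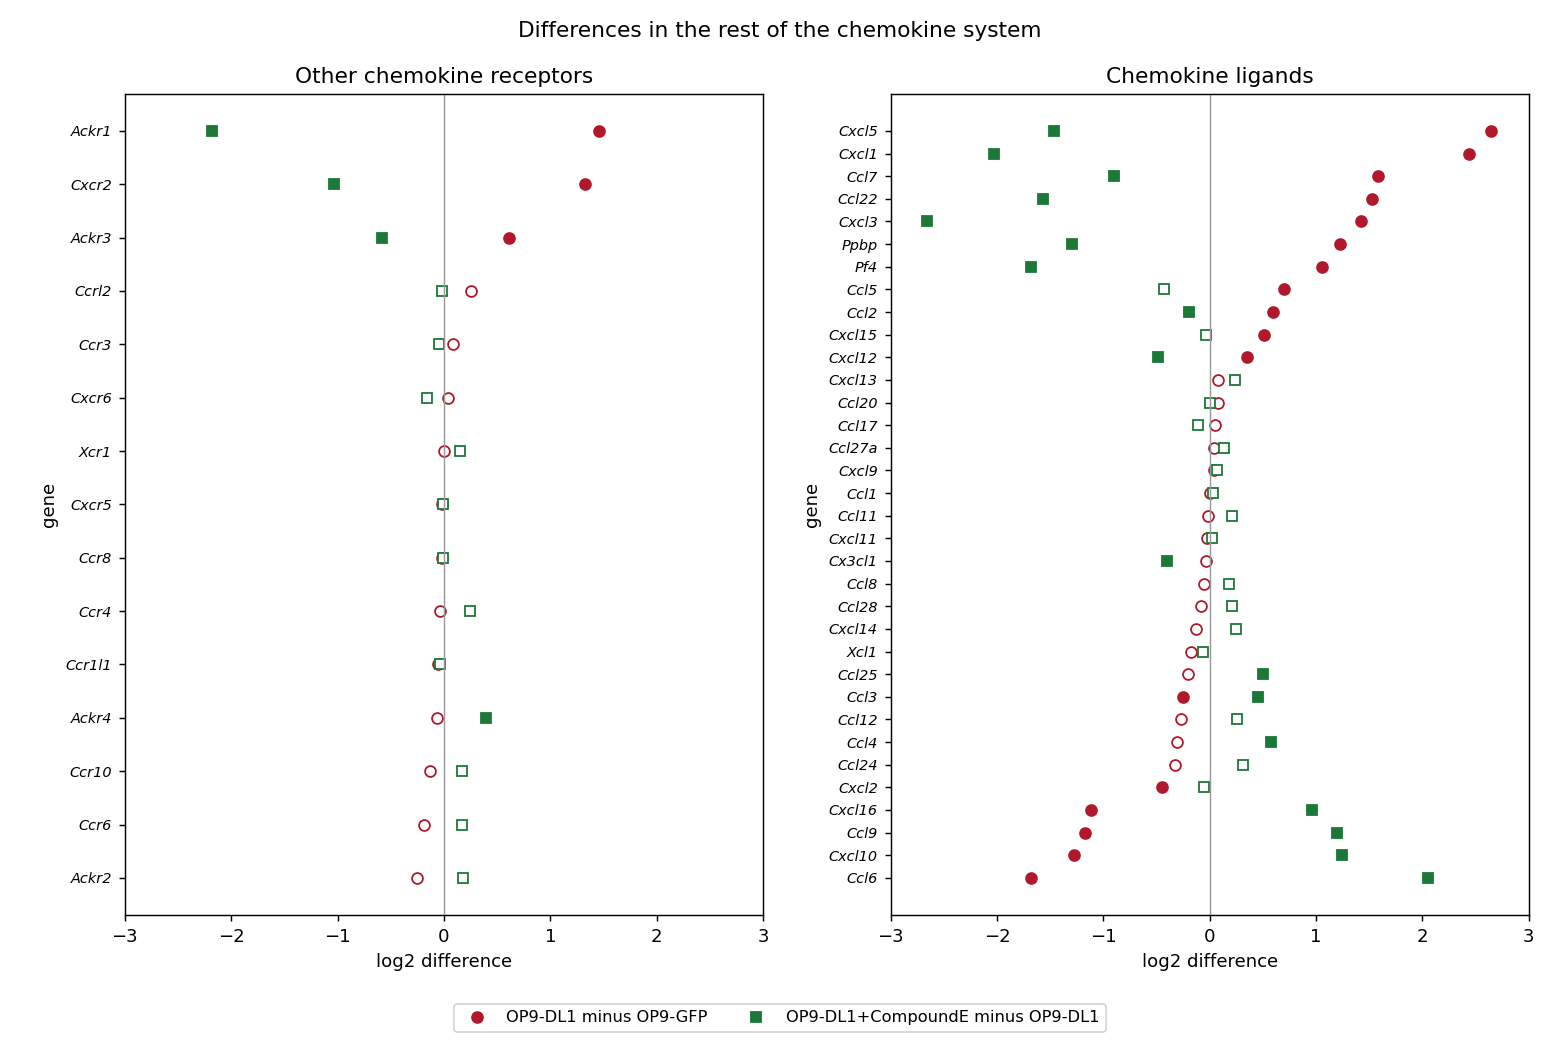
Log2 differences (horizontal axis) of 15 other chemokine receptors (left) and 34 ligands (right), with circles for OP9-DL1 minus OP9-GFP and squares for OP9-DL1+CompoundE minus OP9-DL1; filled symbols have an adjusted p below 0.05. Ackr1 and Cxcr2 are at 1.46 and 1.33 in OP9-DL1 minus OP9-GFP, Cxcl5 and Cxcl1 are at 2.65 and 2.44, and Ccl6 is at -1.68.

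Among 37 genes of receptor signalling and desensitization, 7 were higher and 10 lower in OP9-DL1 than in OP9-GFP cultures. In OP9-DL1+CompoundE cultures, 18 were higher and 7 lower than in OP9-DL1 cultures, and 14 were higher and 2 lower than in OP9-GFP cultures. With arrays centred, 23 were higher and 4 lower in OP9-DL1+CompoundE than in OP9-DL1 cultures, beside 8040 higher and 2876 lower of all 18193 genes. Over all genes 32.6% were called in OP9-DL1 against OP9-GFP, 46.7% in OP9-DL1+CompoundE against OP9-DL1 and 22.7% in OP9-DL1+CompoundE against OP9-GFP cultures. Rgs1, which speeds the shut-off of G proteins downstream of chemokine receptors, averaged 5.30 in OP9-DL1+CompoundE, 9.14 in OP9-DL1 and 6.66 in OP9-GFP cultures. Its log2 difference was 2.48 for OP9-DL1 against OP9-GFP cultures, with an adjusted p of 3.47e-11 in limma, and -3.84 for OP9-DL1+CompoundE against OP9-DL1 cultures, with 1.18e-13. Rgs18, an RGS protein of platelets and megakaryocytes, averaged 9.62 in OP9-DL1+CompoundE, 11.21 in OP9-DL1 and 10.19 in OP9-GFP cultures. Pik3r5 and Pik3r6 encode the regulatory subunits of the phosphoinositide 3-kinase that G proteins activate, and both were lowest in OP9-DL1 cultures. Pik3r5 averaged 9.53 in OP9-DL1+CompoundE, 7.53 in OP9-DL1 and 9.23 in OP9-GFP cultures, and Pik3r6 averaged 9.57 in OP9-DL1+CompoundE, 7.69 in OP9-DL1 and 9.18 in OP9-GFP cultures. The log2 differences for OP9-DL1 against OP9-GFP cultures were -1.70 and -1.50, with adjusted p of 1.65e-10 and 1.81e-10 in limma.

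The genes whose pattern over the 9 arrays was most like that of each receptor were taken by the smallest root mean square difference of log2 values centred on each gene's mean, among 13239 genes above background on at least 1 array. For Ccr7 these were Spic at 0.135, Dnase1l3 at 0.230 and Itgax at 0.235. Like Ccr7, all 3 were high on OP9-DL1 arrays alone, which follows from how they were chosen. For Ccr1 they were Slc2a6 at 0.0925, Clec4a3 at 0.0970 and Slc15a3 at 0.0977, and for Cxcr3 Igfbp6 at 0.130, Galnt9 at 0.147 and Rasgrp4 at 0.183. By the same choice, the Cxcr3 neighbours shared its order, highest on OP9-DL1+CompoundE, between on OP9-GFP and lowest on OP9-DL1 arrays. For Ccr2 they were Id2 at 0.0588, Necap1 at 0.0744 and Anxa5 at 0.0757, and for Cx3cr1 Ago4 at 0.0750, Sdc1 at 0.0834 and F13a1 at 0.0863. The nearest genes of Cxcr4 were Golga7 at 0.0383, Ubr3 at 0.0473 and Eps15 at 0.0491, which moved little, and those of Ccr9, which was above background on 2 of the 9 arrays, were Zbtb24 and Ticrr at 0.177 and Myo1a at 0.181. A small difference is easier to reach for a gene that moves little, so these values do not rank the receptors.

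**Figure D4:**
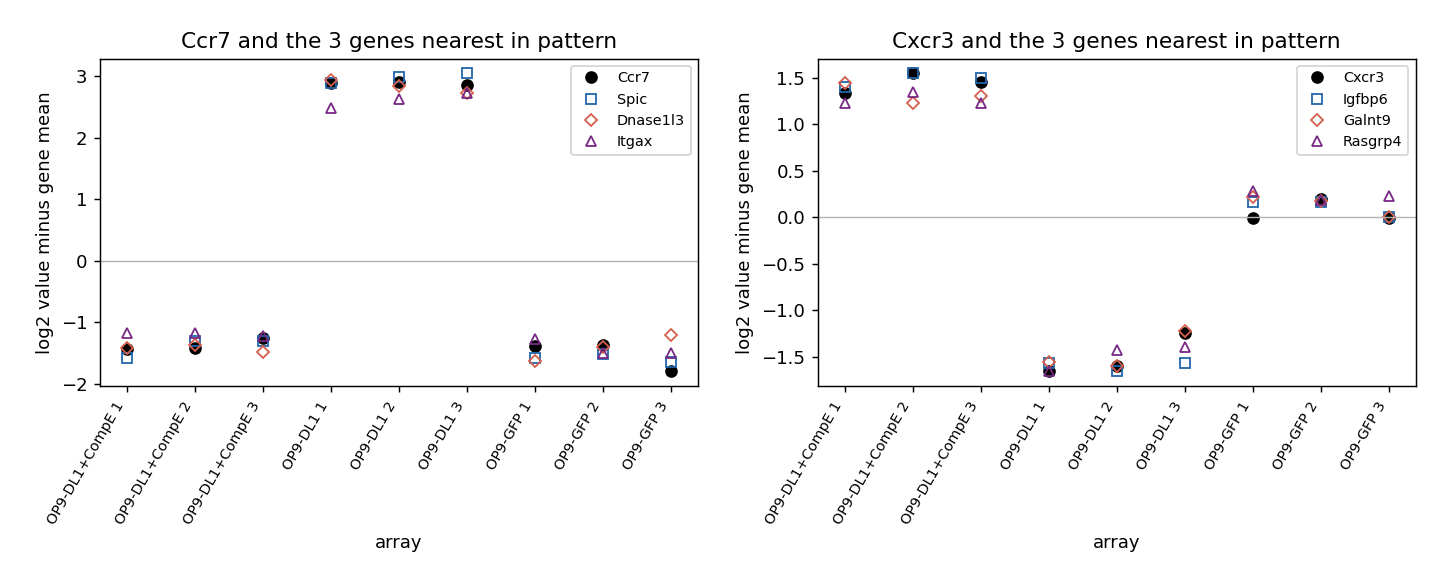
Log2 value minus the gene's mean over the 9 arrays (vertical axis) on each array (CompE stands for Compound E), for Ccr7 and Cxcr3 and the 3 genes nearest to each. The nearest genes were chosen for their likeness on these same 9 arrays. Spic, Dnase1l3 and Itgax are high with Ccr7 on the 3 OP9-DL1 arrays, and Igfbp6, Galnt9 and Rasgrp4 follow Cxcr3 with OP9-GFP arrays between the other groups.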

How the data were processed

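RNA from the harvested cells (25 ng for each of the 9 samples, amplified and biotin-labelled with the Ovation system, per the labels' protocols) was read on Affymetrix 3' expression arrays with 45101 probe sets. The values the authors deposited are on a log2 scale. MAS5 and GCRMA 2.4.1 are named in the submitters' processing notes, with no order or role, and no genome build is named there. The values were used as deposited. GCRMA draws dim probe sets towards a floor, so differences there are uncertain.

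The platform annotation gave 1 symbol to 34945 probe sets, several to 932 and none to 9160, beside 64 controls. Symbols of 34741 were updated by Entrez ID. For each of 18193 genes the brightest probe set on average stood for the gene. One limma 3.58.1 model (R 4.3.3; lmFit, eBayes with an intensity trend, 1 coefficient per group, no covariate) was fitted over all genes, and one over all probe sets, with Benjamini-Hochberg adjustment over the whole table and a threshold of 0.05. Where a group was at background on every array, a fold is a bound against the background limit. The fit was tested on simulated data.

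Named genes were all 7 receptors with every probe set; all measured members of a list of other chemokine receptors; ligands that bind the 7 and the 4 ligands and signalling genes of lowest p in OP9-DL1 against OP9-GFP and in OP9-DL1+CompoundE against OP9-DL1 cultures, some of them given only by count; and the 3 nearest genes of each receptor. Ly6a, Kit, Ptprc and Dll1 were looked up, and single cell type markers and Cxcl2 were named, after the values were seen, and Ly6a is not analysed here. The receptors, the lists of receptors, ligands, signalling genes, Notch targets and cell type markers, and the tests were chosen with earlier results of these data known. Alternatives were quantile normalization, centring of arrays, averaging of probe sets, all probe sets, a filter on dim genes, 32 added before the log, a 2-fold threshold, a replicate block and leaving out each replicate. A filter that kept genes above background was added after seeing the data.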

Additional observations from a re-analysis of the deposited data

How the results depend on the processing

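Ccr1, Ccr2, Ccr7, Cx3cr1 and Cxcr3 kept direction and call in OP9-DL1 against OP9-GFP and in OP9-DL1+CompoundE against OP9-DL1 cultures under every alternative run, except that a 2-fold threshold ended the Ccr2 calls at its brightest probe set, the smallest of its 4 in difference, and Ccr7 drops out of a filter on dim genes. In OP9-DL1+CompoundE against OP9-GFP cultures, 1 receptor, Cxcr3, passed a 2-fold threshold, against 2 as reported. Centring of arrays added Cxcr4 to the calls in OP9-DL1+CompoundE against OP9-DL1 cultures. The median of all genes went from 0.08 to 0.21 with centring, and relative to it Cxcr4 was at -0.04 in both settings. Averaging of probe sets added Ccr2 in OP9-DL1+CompoundE against OP9-GFP cultures, where its probe sets gave 0.08 to 0.42. No further cause of these changes was tested.

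For OP9-DL1 against OP9-GFP, OP9-DL1+CompoundE against OP9-DL1 and OP9-DL1+CompoundE against OP9-GFP cultures in turn, 5934, 8500 and 4135 genes were called. All probe sets gave 11191, 17612 and 8554, from a larger table, and a 2-fold threshold gave 1250, 1714 and 247. Leaving out each replicate gave 5074 to 6268, 7372 to 8460 and 3059 to 4415 genes. Deviations of same-numbered arrays correlated at -0.115 to 0.119 (2 of 9 pairs above 0.1). Those of differently numbered arrays correlated at -0.144 to 0.0947 (0 of 18 pairs above 0.1). The numbers were not taken to pair the samples. With the replicate number as a block, 5755, 8295 and 3972 genes and 5, 5 and 2 receptors were called, as many receptors as without it. The number of arrays and the background limit what can be seen for Ccr7 and Ccr9 at their low ends.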
